A study of Homo sapiens with 32 samples.

Results

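Splicing regulators are the proteins that steer which exons are joined in a messenger RNA, and the decay of their own transcripts was compared between 2 breast cancer cell lines. Members were the coding transcripts (RefSeq NM_ records) of genes whose symbol starts with SRSF, HNRNP (other than HNRNPD itself), CLK, SRPK, RBFOX, MBNL, CELF or PTBP, together with TRA2A, TRA2B, SRRM1, SRRM2, SON, ESRP1, ESRP2, QKI, RBM5, RBM10 and RBM39. Both decay tables held 97 such transcripts of 58 genes, out of 12966 transcripts in all, and 108 transcripts of 59 genes were in at least 1 table. Isoforms were kept apart: 26 genes had 2 or more transcripts in both tables (65 transcripts) and 32 genes had 1.

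The lines were MDA-MB-231, a long-established line from a human breast cancer, and MDA-LM2, a derivative of it selected for metastasis to the lung; both were grown in the same DMEM-based medium with serum and neither carried a named genetic change. Cells received the nucleoside 4-thiouridine (4sU), which replaces some uridine in RNA made during the pulse, for 2 h, the medium was then exchanged for one with excess uridine, and labelled RNA was collected 0, 2, 4 and 7 h later, in 4 libraries for each line and time (32 libraries). The question was which transcripts differ in stability between the lines. For every transcript the authors deposited 4 decay rates per line, 1 from each replicate series spanning the 4 times. A rate is positive where the labelled RNA declined, and a higher rate means a less stable RNA. Neither log base nor time unit of the rates could be read from the tables or labels, so rates are in the deposited unit and no half-life was computed. With 1 parental line and 1 derivative, and no word on whether the series were separate cultures, every p-value reflects spread between series alone, which may be technical. A rate does not give abundance, and read depth is unknown.

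SR proteins (SRSF genes) bind exons through RNA recognition motifs and recruit the spliceosome through arginine- and serine-rich tails, which CLK and SRPK kinases phosphorylate. The hnRNP proteins coat nascent RNA and often oppose exon inclusion, while MBNL, CELF, RBFOX, PTBP and ESRP proteins and QKI set splicing patterns typical of particular tissues. Many of these genes regulate their own output by including or skipping exons that create premature stop codons, so that isoforms of 1 gene can differ in stability.

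Several facts of the tables bear on each value. Most rates lay within 1 of 0, but others stood apart, many of them at about 2 to 3, above 9 or below -8. How time points without reads entered a rate is not given in the labels or headers, so a rate beyond 1 cannot be read as a measured speed of decay. All 8 rates of a transcript were within 1 of 0 for 68 of the 97 members (70.1%), against 65.5% of all transcripts. Among the members' 388 rates per line, 13 lay beyond 1 in MDA-LM2 against 60 in MDA-MB-231 (3.35% and 15.5%; 4.24% and 18.3% over all transcripts). Replicate series 1 and 3 share the second number of their label, as do 2 and 4, and the members' rates ranked more alike within such pairs (Spearman's rho 0.85 to 0.875 in MDA-LM2, 0.591 to 0.798 in MDA-MB-231, 97 transcripts) than between the others (0.508 to 0.589 and 0.147 to 0.388). Each call is therefore also given with a correlation between such series in the fit (estimated at 0.46 over all transcripts). Of marker genes for the cell type, 7 of 8 mesenchymal and 4 of 8 epithelial ones had rates in both lines, as did 0 of 5 fibroblast, 0 of 4 endothelial and 0 of 4 leukocyte markers; levels cannot be read from these tables.

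As a group, splicing regulator transcripts decayed at rates close to those of all transcripts. Their median rate was 0.149 ± 0.0230 in MDA-LM2 against 0.164 ± 0.0125 in MDA-MB-231 (SD over 4 series), beside 0.159 ± 0.0115 and 0.182 ± 0.0156 for all 12966 transcripts. The mean rate was lower in MDA-LM2 for 62 of 97 members (63.9%), against 66.2% of all transcripts. Subtracting MDA-MB-231 from MDA-LM2, the median difference was -0.0416 over the members and -0.0538 over all transcripts; within 1 of 0 it was -0.00612 and -0.0166, and on gene medians -0.00708. Over the members it was -0.0184 with centred series and -0.0222 without MDA-MB-231 series 3.

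Ordered by role, transcripts of the CLK kinases had the highest rates in both lines, whereas hnRNP transcripts were low, the lowest of the roles in MDA-LM2. The median rate of the 4 CLK transcripts was 0.383 ± 0.0593 in MDA-LM2 against 0.392 ± 0.116 in MDA-MB-231, which put them at percentile 88.3 ± 6.06 and 73.9 ± 7.28 among all transcripts of a series. The 39 hnRNP transcripts had medians of 0.0958 ± 0.0101 and 0.141 ± 0.030, or percentiles 31.7 ± 3.33 and 39.3 ± 9.09. The 14 SR protein transcripts lay between them at 0.206 ± 0.0230 and 0.201 ± 0.0159, with the 7 SR-related transcripts at 0.262 ± 0.0145 and 0.199 ± 0.0260 and the 7 RBM transcripts at 0.213 ± 0.0624 and 0.212 ± 0.0610. The 23 transcripts of tissue regulators (MBNL, CELF, RBFOX, PTBP, ESRP2, QKI) had medians of 0.135 ± 0.0172 and 0.138 ± 0.0497. These are descriptions, since no test was run over the lists.

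**Figure D1:**
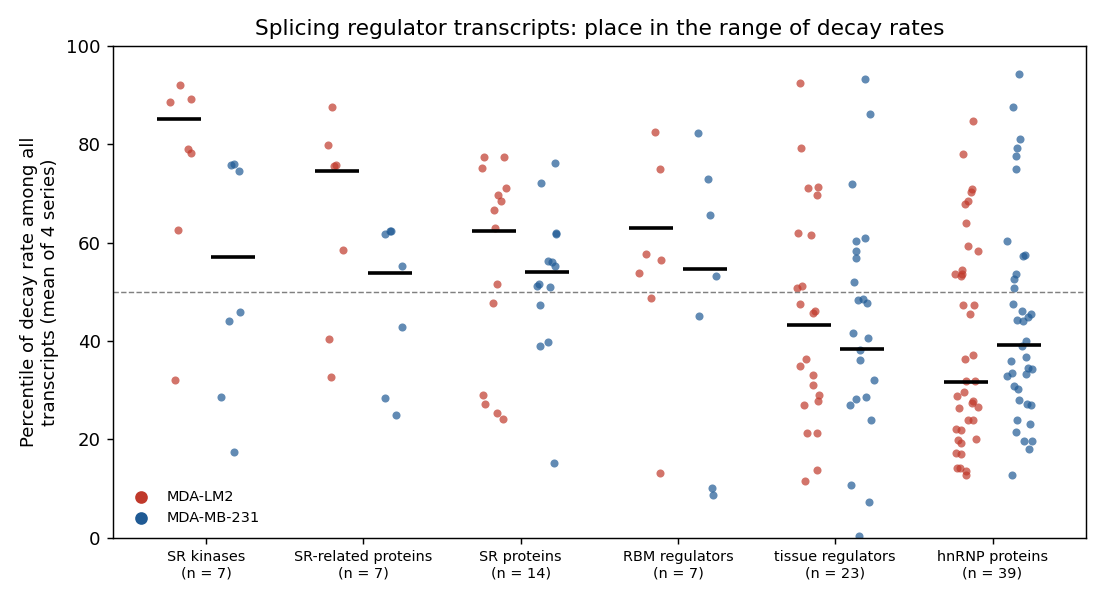
Percentile of each splicing regulator transcript's decay rate among all 12966 transcripts (vertical axis, mean over 4 series) by role, MDA-LM2 in red and MDA-MB-231 in blue; each point is 1 transcript, black bars are the role's median percentile averaged over the 4 series, and the dashed line is the middle of all transcripts. In MDA-LM2 the SR kinases sit highest (bar at 85.2) and the hnRNP proteins lowest (bar at 31.7).

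Between the lines, 6 of the 97 members passed limma's test at a Benjamini-Hochberg adjusted p of 0.05 over all transcripts. That is 6.19%, beside 6.16% of all transcripts (799 of 12966), so the share is that of the background. The direction of the calls was mixed. In MDA-LM2, 2 members were called slower (SRSF3 and 1 MBNL1 isoform, background 4.77%) and 4 faster (SRSF2, CLK3, SRRM2 and CELF2, background 1.39%). Unadjusted p was under 0.05 for 27 members (27.8%; 23.9% of all transcripts). With each series centred on its own median the split was 2 slower and 7 faster (background 3.86% and 2.65%, 6.51% in all), and 501 and 343 over all transcripts in place of 619 and 180. Once series that share a second number were allowed to correlate, only CELF2 and the MBNL1 isoform passed (1 slower and 1 faster, beside 2.56% and 0.185% of all transcripts, 2.75% together). Both rest on MDA-MB-231 rates far beyond 1, which cannot be read as speeds of decay. With only transcripts within 1 of 0 in that fit, 0 members passed as slower and 0 as faster, and likewise 0 and 0 of all transcripts. A variance trend gave 4 slower and 3 faster members (7.94% of all transcripts called). The authors' deposited score, its size read here as 1 minus a p, gave the same counts (5.56%). A correlation within the first number of the labels gave 16 and 11 (22.7%). Leaving out 1 series gave 1 to 6 slower and 1 to 5 faster members. Over all transcripts it gave 353 to 844 slower and 47 to 246 faster, both counts highest without MDA-MB-231 series 2, as for the members. The slower count was 1 without MDA-LM2 series 1, 2 or 3, 5 without MDA-MB-231 series 1 and 6 without MDA-MB-231 series 2; the faster count was 1 without MDA-LM2 series 1, 2 or 3 or MDA-MB-231 series 1 or 3, and 2 without series 4 of either line. The 4 rates of one line did not overlap those of the other in 25 members (25.8%, against 22.5% of all transcripts). Of these members, 11 were higher and 14 lower in MDA-LM2. Over all 12966 transcripts, 756 were higher and 2157 lower without overlap.

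Averaged over series, the SR kinases had the highest median rate of the roles in MDA-LM2 (0.347 ± 0.0566, 7 transcripts). In MDA-MB-231 their average of 0.305 ± 0.204 was also the highest, but series medians ran from 0.112 to 0.508 (percentile 57.0 ± 26.4). The lowest of these was below every series median of the SR proteins (0.184 to 0.222). The 7 include SRPK3, with rates beyond 1. Over the 6 kinase transcripts within 1 of 0, the medians were 0.325 ± 0.0295 and 0.277 ± 0.0931. CLK1, CLK2 and CLK4, dual-specificity kinases that act on SR proteins in the nucleus, had short-lived transcripts in both lines. CLK1 had rates of 0.456, 0.405, 0.432 and 0.448 in MDA-LM2 against 0.320, 0.483, 0.317 and 0.627 in MDA-MB-231. The line means, 0.435 ± 0.0225 and 0.437 ± 0.149, differed by -0.00183 (limma adjusted p = 0.990). CLK2 was alike at 0.419 ± 0.0988 and 0.425 ± 0.112, and CLK4 had 0.282 ± 0.0244 and 0.406 ± 0.122 (adjusted p = 0.963 and 0.279); in both genes the rates of the lines overlapped.

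CLK3 was the exception among the CLK genes. Its rates were 0.376, 0.445, 0.413 and 0.30 in MDA-LM2 against 0.112, -0.0395, 0.0996 and 0.178 in MDA-MB-231. Every MDA-LM2 series was above every MDA-MB-231 series. The difference was 0.296 (SE 0.0545, limma adjusted p = 0.0282; adjusted p = 0.20 with correlated series), and the call was lost without MDA-LM2 series 1, 2 or 3 or MDA-MB-231 series 1 or 3 (adjusted p 0.0581 to 0.0965). In MDA-LM2 CLK3 thus lay among its paralogues, while in MDA-MB-231 its mean of 0.0874 ± 0.0913 was below theirs.

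The SRPK transcripts, which encode the mainly cytoplasmic SR kinases, did not pass the test. SRPK1 was long-lived at 0.0974 ± 0.00405 in MDA-LM2 against 0.0514 ± 0.0206 in MDA-MB-231; its series did not overlap, the higher ones being those of MDA-LM2 (limma adjusted p = 0.157). SRPK2 had 0.207 ± 0.0152 and 0.169 ± 0.0763. SRPK3, a gene known from muscle, had rates from -1.25 to 9.39, and its line means (2.57 ± 4.55 and 3.50 ± 5.34) rest on 1 MDA-LM2 rate of 9.39 and on MDA-MB-231 rates of -1.25, 7.96, -0.985 and 8.29.

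Among the SR proteins, 2 of 14 transcripts passed (14.3%, against 6.16% of all transcripts), in opposite directions. The lines did not overlap in 6 (42.9%, against 22.5% of all), 2 higher and 4 lower in MDA-LM2 (756 and 2157 over all transcripts). SRSF3, the smallest SR protein and one that also takes part in RNA export and 3′ end choice, decayed more slowly in MDA-LM2. Its rates were 0.0817, 0.0700, 0.0616 and 0.0788 in MDA-LM2 against 0.193, 0.162, 0.186 and 0.220 in MDA-MB-231. All 4 MDA-LM2 rates were lower, by -0.117 on average (SE 0.0182, limma adjusted p = 0.0150). The adjusted p was 0.10 with correlated series, and 0.0535 to 0.0635 without any 1 of the MDA-LM2 series.

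SRSF2, also known as SC35 and a marker of nuclear speckles, had 2 coding transcripts, of which 1 passed. They share a coding length of 666 nt in GENCODE and differ in the annotated 3′ untranslated region, 2046 nt in NM_003016 and 1047 nt in NM_001195427, from which an intron is removed. NM_003016 had rates of 0.185, 0.304, 0.202 and 0.249 in MDA-LM2 against -0.00297, 0.0858, 0.0478 and -0.0271 in MDA-MB-231. It decayed faster in MDA-LM2 by 0.209 (SE 0.0377, limma adjusted p = 0.0259), with no overlap between lines. The adjusted p was 0.133 with correlated series and 0.0522 to 0.0856 when any 1 series other than MDA-MB-231 series 2 was left out. NM_001195427 had 0.0909, 0.202, 0.158 and 0.218 in MDA-LM2 against 0.122, 0.354, 0.171 and 0.328 in MDA-MB-231, which overlapped (limma adjusted p = 0.461). Subtracting NM_003016 from NM_001195427 within each series gave -0.0679 ± 0.0354 in MDA-LM2 against 0.218 ± 0.114 in MDA-MB-231, negative in 4 of 4 and positive in 4 of 4 series; the difference between lines did not pass over the 32 isoform pairs compared (two-sided exact permutation test, adjusted p = 0.131).

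The other SR transcripts did not pass. SRSF9 had 0.0688 ± 0.0358 in MDA-LM2 against 0.190 ± 0.0477 in MDA-MB-231 (limma adjusted p = 0.0796), and SRSF1, the founding member of the family, 0.0807 ± 0.0274 and 0.194 ± 0.0734 (adjusted p = 0.144). In both genes the MDA-LM2 series were all below the MDA-MB-231 series. SRSF11 NM_004768 lay the other way, at 0.280 ± 0.0338 and 0.145 ± 0.0689 (limma adjusted p = 0.104). SRSF6 was nearly equal at 0.208 ± 0.0247 and 0.206 ± 0.0232, as were SRSF4 (0.278 ± 0.0232 and 0.249 ± 0.0640) and SRSF7 NM_001031684 (0.151 ± 0.0168 and 0.173 ± 0.0260). The remaining SR transcripts (SRSF5, SRSF8, SRSF11 NM_001190987) had means between 0.135 and 0.273 in both lines, and SRSF10 had 3 MDA-MB-231 rates beyond 1.

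Among the SR-related proteins, 1 of 7 transcripts passed (14.3%, against 6.16% of all transcripts). The lines did not overlap in 3 (42.9%, against 22.5% of all), with MDA-LM2 higher in each. These were SRRM1, SRRM2 and 1 of the 2 SON isoforms, all of genes for large proteins of nuclear speckles, and SRRM2 passed the test. SRRM2, a scaffold of nuclear speckles, had rates of 0.267, 0.276, 0.244 and 0.281 in MDA-LM2 against 0.108, 0.184, 0.153 and 0.177 in MDA-MB-231. Every MDA-LM2 value was higher, and the difference of 0.111 passed (SE 0.0226, limma adjusted p = 0.0386). The adjusted p was 0.0508 with robust variances, 0.138 with correlated series and 0.0515 to 0.119 when any 1 series other than MDA-MB-231 series 2 was left out. SRRM1, which couples splicing to 3′ end processing, had 0.293 ± 0.0208 and 0.208 ± 0.0340 (limma adjusted p = 0.0924). SON NM_032195 had 0.402, 0.332, 0.307 and 0.467 in MDA-LM2 against 0.200, -0.120, 0.127 and 0.0770 in MDA-MB-231, without overlap (limma adjusted p = 0.0682). The other SON isoform, NM_138927, had 0.268 ± 0.0223 and 0.259 ± 0.0697 (limma adjusted p = 0.896). TRA2A and both TRA2B transcripts overlapped between the lines.

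**Figure D2:**
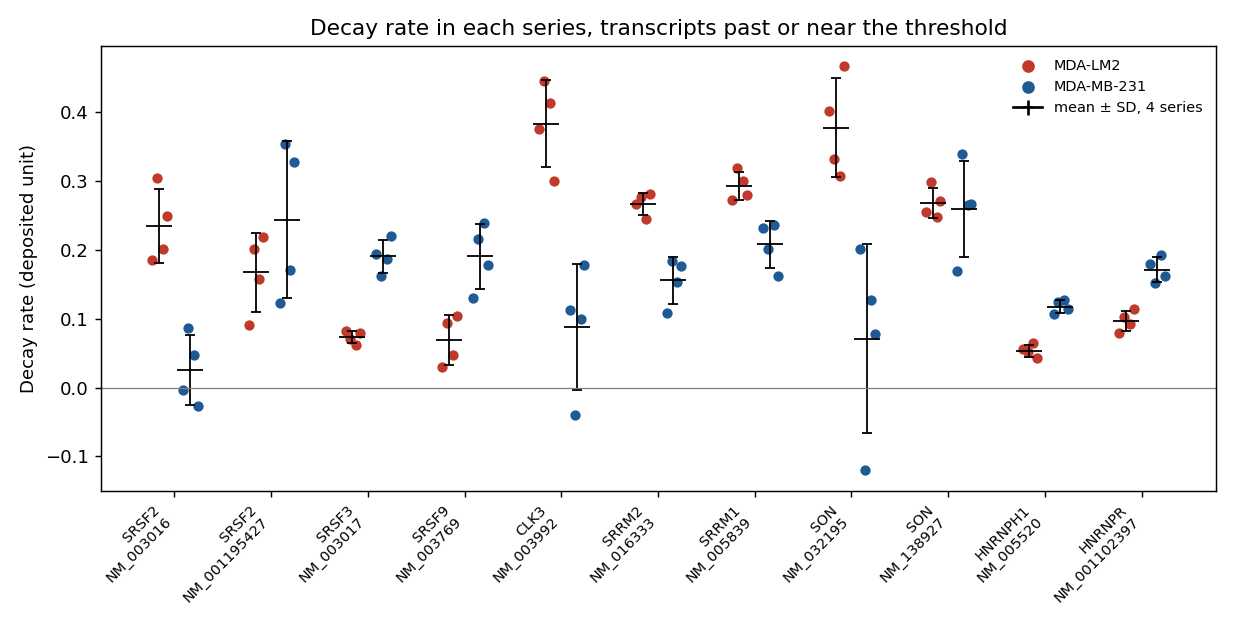
Decay rate (vertical axis, deposited unit) of 11 transcripts that passed the test or lay near the threshold, with the second isoforms of SRSF2 and SON; points are the 4 series of MDA-LM2 (red) and MDA-MB-231 (blue), black bars the mean ± SD. SRSF2 NM_003016, CLK3, SRRM2, SRRM1 and SON NM_032195 are higher in every MDA-LM2 series, while SRSF3, SRSF9, HNRNPH1 and HNRNPR are lower.

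Of the 39 hnRNP transcripts of 22 genes, 0 passed the test in either direction (8, or 20.5%, had an unadjusted p under 0.05 in limma, beside 23.9% of all transcripts, and the score of the authors' deposited table called 2). The mean rate was lower in MDA-LM2 for 29 of 39 (74.4%, against 66.2% of all transcripts). The lines did not overlap in 8 (20.5%, against 22.5% of all), of which 7 were lower and 1 higher in MDA-LM2. Over all transcripts 2157 were lower and 756 higher, so most lay lower there too. HNRNPH1, which binds runs of guanine, had rates of 0.0555, 0.0515, 0.0641 and 0.0434 in MDA-LM2 against 0.106, 0.124, 0.127 and 0.113 in MDA-MB-231. The difference was -0.0639 (SE 0.0148, limma adjusted p = 0.0569). HNRNPR NM_001102397 had 0.0970 ± 0.0147 and 0.171 ± 0.0179 (limma adjusted p = 0.0591). Both passed when the size of the authors' deposited score was read as 1 minus a p and adjusted in the same way (0.00295 for HNRNPH1 and 0.0213 for HNRNPR).

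Rates of the other hnRNP genes spread widely. HNRNPC, which binds uridine tracts, had 4 isoforms with means between 0.0177 and 0.0477 in MDA-LM2 and between 0.0799 and 0.204 in MDA-MB-231. HNRNPL NM_001005335 had 0.0210 ± 0.0179 and 0.0548 ± 0.0239, and HNRNPU NM_004501, which encodes a nuclear matrix protein, 0.0774 ± 0.0133 and 0.139 ± 0.0335. HNRNPK NM_031263 had the lowest mean rate over both lines of the hnRNP transcripts within 1 of 0, at 0.0143 ± 0.0514 and 0.0156 ± 0.0432. HNRNPA0 was faster than most, at 0.282 ± 0.0215 and 0.256 ± 0.144. HNRNPF, a relative of HNRNPH1, had 3 isoforms with rates beyond 1 (up to 9.64 in MDA-LM2 against 9.83 in MDA-MB-231). HNRNPA1L2, HNRNPCL2 and HNRNPCL3 belong to families with closely similar copies, and how reads were divided among copies is not given, so their rates are uncertain. HNRNPCL2 and HNRNPCL3 had nearly the same values (MDA-LM2 means of 0.0431 ± 0.0717 and 0.0597 ± 0.0534, MDA-MB-231 means of 0.105 ± 0.144 and 0.149 ± 0.158).

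Isoforms of several of these genes differ in a coding exon, shown here because rates of forms with or without it are described below. Of the genes shown, only HNRNPA2B1 had its forms compared with each other by a test. Sequences are the exon as transcribed, 5′ to 3′, read from GENCODE 29 on GRCh38; the decay tables rest on an older build, and transcripts were paired by RefSeq accession.
HNRNPA2B1 exon of NM_031243 (36 nt, minus strand, chr7:26197831-26197866): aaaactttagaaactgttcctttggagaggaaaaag
SRSF7 exon of NM_001031684 (36 nt, minus strand, chr2:38746144-38746179): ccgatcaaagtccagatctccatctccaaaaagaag
HNRNPAB exon of NM_031266 (141 nt, plus strand, chr5:178210132-178210272): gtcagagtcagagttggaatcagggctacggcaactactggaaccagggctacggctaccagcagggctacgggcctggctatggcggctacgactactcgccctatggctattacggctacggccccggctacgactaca
PTBP1 exon of NM_002819 (78 nt, plus strand, chr19:805492-805569): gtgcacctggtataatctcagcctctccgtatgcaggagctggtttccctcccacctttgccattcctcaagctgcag
TRA2B exon of NM_004593 (134 nt, minus strand, chr3:185926601-185926734): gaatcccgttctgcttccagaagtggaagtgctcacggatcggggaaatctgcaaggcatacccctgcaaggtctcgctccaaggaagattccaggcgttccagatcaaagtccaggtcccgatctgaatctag

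The HNRNPA2B1 exon separates the B1 form, which holds it, from the A2 form, which skips it; the paired transcripts also differ in annotated 3′ untranslated length, 2433 against 516 nt. A2 (NM_002137) had rates of 0.157, 0.150, 0.150 and 0.141 in MDA-LM2 against 0.0359, 0.102, 0.0665 and 0.111 in MDA-MB-231, all higher in MDA-LM2 (limma adjusted p = 0.115). B1 had 0.0811 ± 0.0297 and 0.0871 ± 0.0732 (limma adjusted p = 0.934). Subtracting B1 from A2 within each series gave 0.0683 ± 0.0348 in MDA-LM2 against -0.00813 ± 0.106 in MDA-MB-231. This difference between lines did not pass (two-sided exact permutation test, adjusted p = 0.416). The HNRNPAB form with the exon printed above had 0.175 ± 0.0312 in MDA-LM2 against 0.220, 2.78, 2.63 and 2.56 in MDA-MB-231, and the form without it 0.112 ± 0.0429 and 0.0589 ± 0.0486. Of the TRA2B pair, the form with the exon has 1809 nt of 3′ untranslated region in GENCODE and the other 0. For SRSF7 and TRA2B it was the form lacking the exon that had a rate beyond 1 in MDA-MB-231 (2.93 in series 2 of SRSF7 NM_001195446 and 3.02 in series 1 of TRA2B NM_001243879). PTBP1, the polypyrimidine tract binding protein, had rates from -1.78 to 1.99 in NM_002819 and from -0.0257 to 1.01 in NM_031991. None of these members passed limma's test between lines. The forms of SRSF7, HNRNPAB, PTBP1 and TRA2B were not compared with each other, since each pair held a rate beyond 1.

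The RBM regulators gave 0 calls among 7 transcripts (3, or 42.9%, with an unadjusted p under 0.05 in limma, beside 23.9% of all transcripts; the authors' deposited score called 0 as well). RBM5, a regulator of apoptosis gene splicing, had 0.317 ± 0.0490 in MDA-LM2 against 0.202 ± 0.0462 in MDA-MB-231 (limma adjusted p = 0.113). RBM39, a cofactor of 3′ splice site recognition, had 4 isoforms with nearly equal means in MDA-LM2 (0.184 to 0.191) and unequal ones in MDA-MB-231 (-0.127 to 1.63). Of these, NM_004902 had rates of 0.152, 0.215, 0.187 and 0.195 in MDA-LM2 against 0.398, 0.263, 0.476 and 0.284 in MDA-MB-231, without overlap (limma adjusted p = 0.115). Both RBM10 isoforms had rates beyond 1 in 1 line.

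The tissue regulators held both members with the largest differences that passed the test, and both rest on rates far beyond 1 in MDA-MB-231, which cannot be read as measured speeds of decay. CELF2, a regulator best known from muscle, brain and T cells, had rates of 0.282, 0.0920, 0.241 and 0.0626 in MDA-LM2 against -8.18, -8.29, -8.18 and -8.31 in MDA-MB-231. All 4 MDA-MB-231 values were far below 0, and the difference was 8.41 (SE 0.0634, limma adjusted p = 3.33e-10; adjusted p = 9.44e-10 with correlated series). With a variance trend in limma the adjusted p was 0.997. Its relative CELF1 had 5 isoforms, 3 of them within 1 of 0 in every series, with means of 0.107 to 0.273 in MDA-LM2 against 0.0895 to 0.317 in MDA-MB-231.

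MBNL1, the muscleblind protein that CELF proteins often oppose, had 5 isoforms. Exons that distinguish them are shown because only some isoforms had extreme rates; all are on chromosome 3, plus strand, GRCh38, and those of MBNL2, its paralogue on chromosome 13, plus strand, are set beside the matching ones. Capitals mark bases that differ between MBNL1 and MBNL2 in exons of equal length.
MBNL1 exon in NM_207293 alone of the 5 (54 nt, chr3:152446704-152446757): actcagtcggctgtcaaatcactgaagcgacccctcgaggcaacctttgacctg
MBNL1 exon in NM_021038, NM_207295 and NM_207297 (36 nt, chr3:152455542-152455577): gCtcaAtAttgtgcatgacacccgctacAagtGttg
MBNL2 exon in NM_144778 (36 nt, chr13:97365136-97365171): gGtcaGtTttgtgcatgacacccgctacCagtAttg
MBNL1 exon in all of the 5 but NM_207297 (95 nt, chr3:152456267-152456361): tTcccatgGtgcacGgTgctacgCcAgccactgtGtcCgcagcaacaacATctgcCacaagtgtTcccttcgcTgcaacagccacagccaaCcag
MBNL2 exon in NM_144778 (95 nt, chr13:97366459-97366553): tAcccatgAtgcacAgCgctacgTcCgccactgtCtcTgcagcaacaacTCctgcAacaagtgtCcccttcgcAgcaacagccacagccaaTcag
MBNL1 exon in NM_207296 alone of the 5 (64 nt, chr3:152458130-152458193): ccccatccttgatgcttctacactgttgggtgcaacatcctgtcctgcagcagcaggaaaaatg

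The paralogues share 31 of 36 bases in the shorter and 81 of 95 in the longer of the paired exons. NM_207296, which lacks the 36-nt exon and a further one of 154 nt and holds the 64-nt one, had rates of 0.0799, -0.265, 0.148 and 0.171 in MDA-LM2 against 9.38, 9.23, 9.39 and 9.36 in MDA-MB-231. It was called slower in MDA-LM2, by -9.31 (SE 0.103, limma adjusted p = 2.10e-09; adjusted p = 2.75e-08 with correlated series). NM_207297, which lacks the 95-nt exon, had 0.105, 0.152, 0.154 and 0.264 in MDA-LM2 against 9.62, 0.167, 9.67 and 9.62 in MDA-MB-231; its second MDA-MB-231 series was near 0 and the difference did not pass (limma adjusted p = 0.119). The other 3 isoforms stayed near 0: NM_021038 had 0.0839 ± 0.0416 and 0.0847 ± 0.115, NM_207293 0.0163 ± 0.0408 and 0.13 ± 0.0472, and NM_207295 0.0792 ± 0.102 and 0.0766 ± 0.0521. Of the 5 isoforms 1 was called, and the difference between isoforms with rates beyond 1 was not tested. In MBNL2, the isoform lacking both paired exons (NM_207304) had the extreme values in MDA-LM2 instead (0.220, 3.03, 0.163 and 2.73), while MDA-MB-231 stayed at 0.178 ± 0.0283 and NM_144778 at 0.145 ± 0.0262 and 0.186 ± 0.102.

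**Figure D3:**
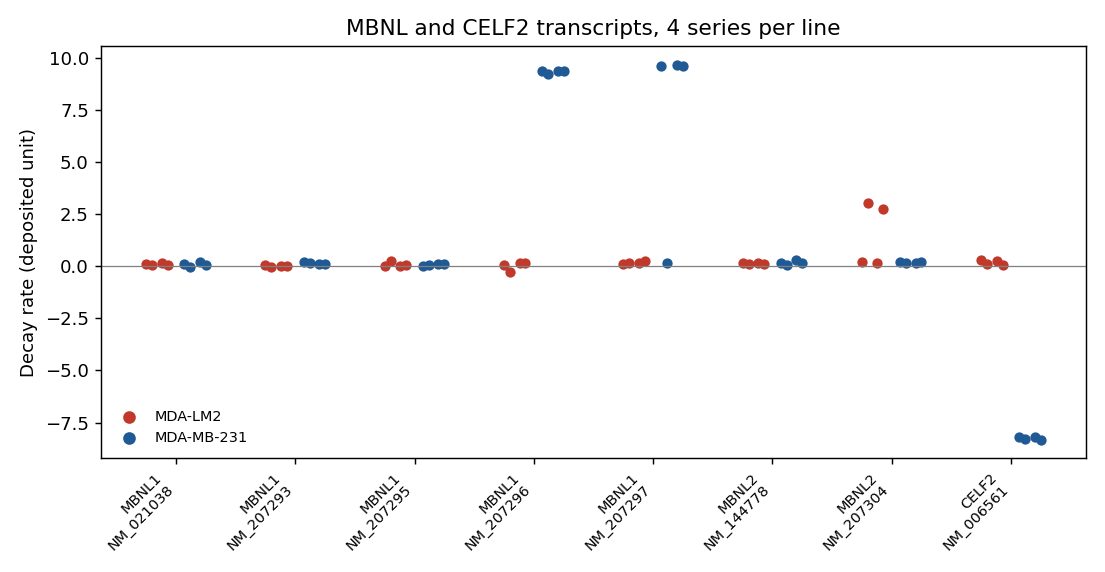
Decay rate (vertical axis, deposited unit) of 5 MBNL1, 2 MBNL2 and 1 CELF2 transcripts; each point is 1 of the 4 series of MDA-LM2 (red) or MDA-MB-231 (blue). MBNL1 NM_207296 lies above 9 in all 4 MDA-MB-231 series, NM_207297 in 3 of 4, and CELF2 below -8 in all 4.

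The other tissue regulators showed no called difference. PTBP2, the neuronal paralogue of PTBP1, was even at 0.237 ± 0.0130 in MDA-LM2 against 0.214 ± 0.0287 in MDA-MB-231, and QKI, a STAR family protein linked to myelin and circular RNA formation, was long-lived at 0.0799 ± 0.0321 and 0.0927 ± 0.0693. ESRP2, an epithelial splicing factor, had 0.144 ± 0.0196 and 0.152 ± 0.0725. The RBFOX2 isoforms had rates from -0.305 to 0.377 in MDA-LM2 and from -2.13 to 0.625 in MDA-MB-231. PTBP3 NM_001244896 had rates of 9.53 in 1 MDA-LM2 series and of 9.81, -8.44, 9.81 and 0.119 in MDA-MB-231, so its means carry no information on the lines.

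**Figure D4:**
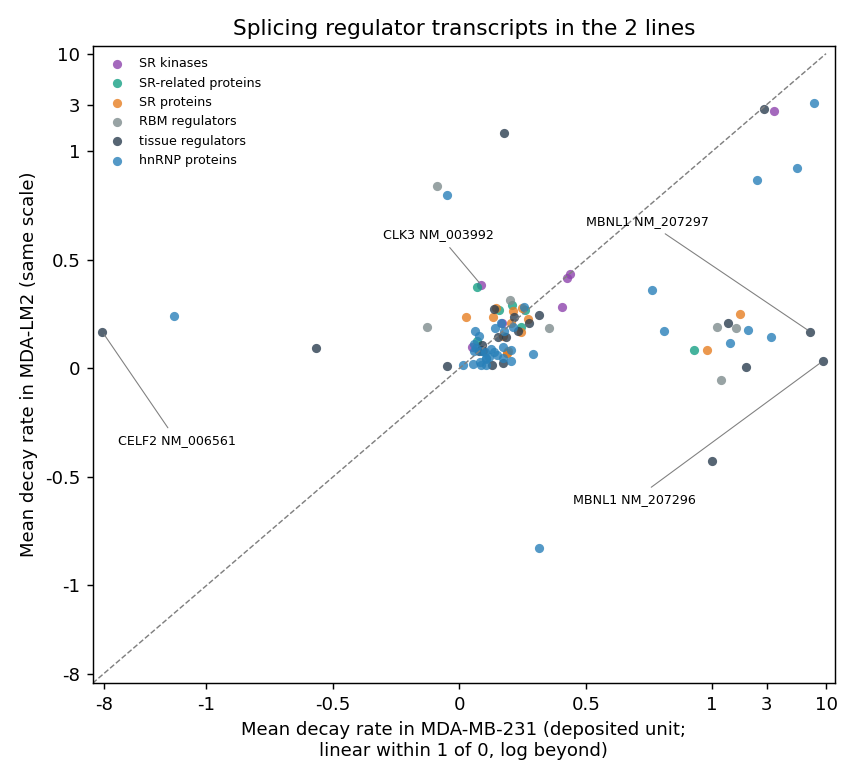
Mean decay rate of each of the 97 transcripts in MDA-LM2 (vertical) against MDA-MB-231 (horizontal), each the mean of 4 series, coloured by role; axes are linear within 1 of 0 and logarithmic beyond, and the dashed line marks equal rates. Most points lie between 0 and 0.5 on both axes, and more points lie beyond 1 along the MDA-MB-231 axis than along the MDA-LM2 axis.

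Across the 97 members the mean rates of the lines ranked only loosely alike (Spearman's rho 0.241, and 0.439 over the 68 within 1 of 0; 0.390 and 0.566 over all transcripts), values given as descriptions of transcripts that share series. Isoform differences were compared between lines in 32 pairs of transcripts of 15 genes with all rates within 1 of 0, of which 23 were pairs of coding transcripts. A two-sided exact permutation test of the 4 against 4 within-series differences gave its smallest possible p of 0.0286 in 7 pairs, but the smallest Benjamini-Hochberg adjusted p was 0.131. At this floor 19 of the 32 pairs would have had to reach it for any to pass, so that 0 passing says little; the test also takes series as exchangeable, although those with the same second number are more alike. The 7 included the coding pairs of SRSF2, SON (0.109 ± 0.0751 in MDA-LM2 against -0.188 ± 0.203 in MDA-MB-231, NM_032195 minus NM_138927) and RBM39 (-0.00408 ± 0.164 and 0.482 ± 0.263, NM_004902 minus NM_184234).

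Noncoding transcripts (RefSeq NR_ records) of the same genes were not members. SR genes are known to limit their own expression by including exons that end the reading frame early. Whether these noncoding transcripts hold such exons was not examined. There were 11 noncoding transcripts, from 9 genes. In MDA-LM2 the median rate over series of 9 of the 11 was above that of every coding transcript of its gene. For MDA-MB-231 this held for 4 of 11 (CLK1 4.94, SRSF6 1.63, SRSF2 1.64 and RBM5 1.96). All 4 of these medians are beyond 1 and cannot be read as speeds of decay. Some coding medians in MDA-MB-231 were beyond 1 as well (SRSF10 2.20, RBM39 NM_001242599 1.19 and NM_001242600 1.55). The noncoding transcripts of these genes were set against such values in MDA-MB-231, so the counts of the lines cannot be compared directly. The same share over all genes was not computed, and these transcripts were chosen after their values were seen. SRSF3 NR_036610 had rates of 0.283, 0.379, 0.449 and 0.324 in MDA-LM2, where the coding form was at 0.0730 ± 0.00909, and of 0.0785, 0.190, 0.133 and 0.148 in MDA-MB-231, where the coding form was at 0.190 ± 0.0239. The noncoding form was thus faster in MDA-LM2, by 0.221 (SE 0.0429, limma adjusted p = 0.0336; adjusted p = 0.20 with correlated series), and the coding form slower. HNRNPDL NR_003249 had 0.304 ± 0.0646 in MDA-LM2 against 0.0986 ± 0.0727 in MDA-MB-231 (limma adjusted p = 0.0595). RBM39 NR_040722 had 0.30 ± 0.0866 and -0.139 ± 0.115 (limma adjusted p = 0.0168; adjusted p = 0.101 with correlated series), and RBM5 NR_036627 0.525 ± 0.306 and 1.92 ± 0.559 (adjusted p = 0.0481; adjusted p = 0.217 with correlated series). Every MDA-MB-231 rate of RBM5 NR_036627 was beyond 1, so its difference cannot be read as one of decay speed. Most exons of a noncoding form are shared with the coding ones, and how reads were divided between them is not known from the sources used here.

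**Figure D5:**
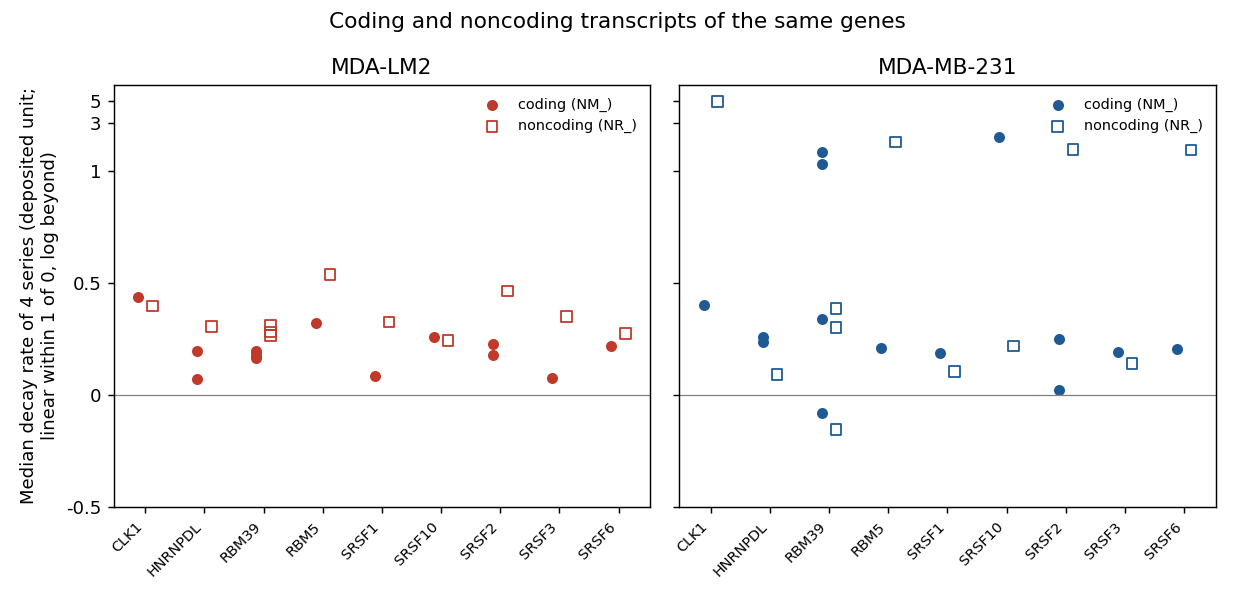
Median decay rate over 4 series (vertical axis, linear within 1 of 0 and logarithmic beyond) of coding (filled circles) and noncoding (open squares) transcripts of 9 splicing regulator genes, MDA-LM2 on the left and MDA-MB-231 on the right. In MDA-LM2 9 of 11 squares lie above all circles of their gene, in MDA-MB-231 4 of 11, all 4 of them beyond 1. In MDA-MB-231 circles of SRSF10 and RBM39 also lie beyond 1.

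Other genes of splicing control were called about as often as all transcripts. From a list of 60 further regulators, 53 genes had 89 coding transcripts, of which 4 were slower and 1 faster in MDA-LM2 (5.62%, beside 6.16%). They were TIAL1 NM_001033925, a relative of the stress granule protein TIA1 (-2.55, limma adjusted p = 3.14e-06), DYRK1A NM_130436, a kinase (-0.402, adjusted p = 0.000653), MATR3 NM_199189 (-0.287, adjusted p = 0.0203), PCBP2 NM_031989, a binder of cytosine tracts (-0.344, adjusted p = 0.0229), and LUC7L2 NM_001244585, a U1 snRNP-associated protein (0.155, adjusted p = 0.0330). With correlated series the limma adjusted p was 1.12e-05 for TIAL1, 0.0104 for DYRK1A, 0.0489 for MATR3, 0.133 for PCBP2 and 0.128 for LUC7L2. TIAL1 NM_001033925 had an MDA-MB-231 mean of 2.82 ± 0.168, beyond 1, so its difference cannot be read as one of decay speed. The calls are of single isoforms, and no other coding isoform of these genes passed. Some lay the other way (DYRK1A NM_001396 by 0.159, PCBP2 NM_001128911 by 0.452, LUC7L2 NM_016019 by -0.241). Others lay the same way (TIAL1 NM_003252 by -0.0179, MATR3 NM_018834 by -0.0497). Of 16 transcripts of the 14 nonsense-mediated decay factors, which destroy RNAs with premature stop codons, 2 passed (12.5%, beside 6.16%): EIF4A3 was slower (-0.115, limma adjusted p = 0.0473) and UPF3B faster in MDA-LM2 (0.206, adjusted p = 0.0391), and neither passed with correlated series (adjusted p = 0.192 and 0.241).

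In the features of the transcripts themselves, 49 of the 60 members within 1 of 0 that could be paired with GENCODE held the motif ATTTA (searched on the transcribed strand) in the 3′ untranslated region (81.7%), against 73.4% of 7465 transcripts. All 11 SR protein transcripts among them held it. The number of ATTTA motifs and the mean rate were close to unrelated over these members (Spearman's rho -0.0416 in MDA-LM2 against -0.0524 in MDA-MB-231; 0.0887 and 0.105 over all), as was 3′ untranslated length (-0.0999 and -0.0560). Among the 24 hnRNP transcripts of these 60, rho was 0.382 and 0.304 for the motif and 0.314 and 0.298 for the length. For the number of exons it was -0.165 and -0.554. Some of the 24 are isoforms of the same gene, so they are not independent. Presence of the motif is a description of letters, not a site.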

How the data were processed

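Labelled RNA from 32 libraries was sequenced; values per library were not used here. The authors deposited 1 table of decay rates per line (rate in a unit of its own, estimated from abundance at the 4 times, per the labels' design text) and a table with a differential score per transcript, positive where MDA-LM2 decays more slowly, per the file headers. TopHat, Cufflinks and hg18 are named in the submitters' processing notes, without version or role. No column of per-sample values was left unmapped.

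Accessions were given current symbols from a RefSeq gene table (12644 transcripts) and GENCODE 29 (118; 204 without symbol). Members and lists were chosen with earlier results of these data known. Rates of all 12966 transcripts were fitted together with limma 3.58.1 (R 4.3.3; without variance trend or block; two-sided p adjusted by Benjamini-Hochberg, threshold 0.05). The variance trend of an earlier analysis was made an alternative; CELF2 is not called under it. On simulated data of 12966 transcripts with independent noise, the fit recovered 58% of differences of 0.3 and 3% of differences of 0.1. Of all its calls there, 8.96% were false, above the share that the threshold of 0.05 aims at. Shared noise between series was not simulated. The header names the deposited score a t-score. Its size was read here as 1 minus a p, which is an assumption, and adjusted in the same way. GENCODE transcripts (GRCh38) gave exons for the 84 of 97 members paired with 1 transcript; 13 were not paired. Percentiles are ranks within a series. Named were members past the threshold, extremes of each role, genes with several isoforms, and members with the largest differences within 1 of 0; from other lists, only transcripts past the threshold, except the noncoding transcripts, which were chosen after their values were seen. Figures and summaries used Python 3.11.15, numpy 2.4.6, pandas 2.3.3, scipy 1.17.1 and matplotlib 3.10.9. Alternatives were other variance models, centring, clipping or leaving out rates beyond 1, correlation within series numbers, a replicate block, each series left out, gene medians and the deposited score. The sequence of 1 exon, and the comparison that rests on it, is not reported here.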

Additional observations from a re-analysis of the deposited data

Results flagged for a closer look

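In 27 of the 194 groups of 4 series (97 members in each of 2 lines), 1 series stood far from the other 3 relative to the group's range; chance flags about 1 in 20 groups, or 9.7. In 16 of the 27 the rate that stood apart was beyond 1 from 0, and 9 were in MDA-MB-231 series 2.

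In MDA-LM2, rates that stood above the rest were those of HNRNPA1L2 (2.90 for NM_001011724 and 2.74 for NM_001011725), HNRNPF NM_001098206 (3.10), SRPK3 (9.39), PTBP3 NM_001244896 (9.53), RBM10 NM_152856 (2.54), HNRNPL NM_001533 (0.254) and HNRNPL NM_001005335 (0.0477). Rates below the rest were those of PTBP1 NM_002819 (-1.78), HNRNPA1 NM_002136 (0.0591), HNRNPU NM_004501 (0.0576) and TRA2A (0.0941).

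In MDA-MB-231, rates above the rest were those of CELF1 NM_001025596 (0.252), HNRNPF NM_001098204 (2.09), SRSF7 NM_001195446 (2.93), TRA2B NM_001243879 (3.02), HNRNPH3 NM_012207 (2.67), PTBP1 NM_031991 (1.01) and RBM10 NM_152856 (0.0654). Rates below the rest were those of HNRNPA1L2 NM_001011725 (-0.702), HNRNPH2 NM_001032393 (-8.21), RBFOX2 NM_001082576 (-2.13), HNRNPF NM_001098207 (3.02, the others above 9), HNRNPDL NM_001207000 (0.0494), HNRNPAB NM_031266 (0.220), MBNL1 NM_207296 (9.23) and MBNL1 NM_207297 (0.167).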

How the results depend on the processing

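Counts of members are given as slower and faster in MDA-LM2, 2 and 4 as reported. They were 4 and 3 with a variance trend, 4 and 3 by the deposited score, 2 and 3 with robust variances, 2 and 7 with centred series, 1 and 1 with a correlation within the second number of the labels, 16 and 11 with one within the first number, and 0 and 0 when only transcripts within 1 of 0 were fitted with the former correlation (an alternative chosen after seeing the data). Over all transcripts these last fits gave 332 and 24, 2125 and 814, and 0 and 0, in place of 619 and 180. Without 1 series members ranged from 1 to 6 and from 1 to 5 (353 to 844 and 47 to 246 over all transcripts). The median difference over members (-0.0416) was -0.00612 within 1 of 0, -0.00708 on genes and -0.0184 with centred series. None of the 12 members followed through the alternatives, those called or nearest the threshold, changed direction. This was largely fixed in advance. The lines did not overlap in any of them, and other variance models and correlations leave a difference as it is. Adjusted p of SRSF3 ranged from 0.0023 to 0.161. The replicate block, pairing lines by number, gave 1 and 1 (CELF2 and MBNL1 NM_207296, with 285 and 23 over all). Series of the same number did not deviate together between lines (correlations -0.0032 to 0.0073). Whether they were handled together is not given in the labels. The cause of the changes in counts, including any effect of fewer series, was not tested. Depth is unknown, and differences near 0.1 are mostly below what 4 series detect.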

Other observations

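A further 11 coding transcripts of splicing regulators had rates in 1 table only and enter no comparison. In MDA-LM2 they were 2 SRSF10 isoforms (NM_001191006 and NM_001191009, each with a rate above 9 in series 3), RBFOX2 NM_014309 (0.269, -5.62, 2.18 and 1.14) and HNRNPH3 NM_021644 (0.0297 ± 0.246). In MDA-MB-231 they were SRSF5 NM_001039465, which was even across series at 2.73 ± 0.103, HNRNPF NM_001098205 and NM_004966, MBNL3 NM_001170703 (-0.30 ± 1.02) and 3 RBM10 isoforms with rates from -8.31 to 9.72. The coding SRSF5 transcript in both tables, NM_006925, had 0.265 ± 0.0155 in MDA-LM2 against 0.211 ± 0.0354 in MDA-MB-231.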
